A study of Homo sapiens with 4 samples.

Results

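The platelet-derived growth factor (PDGF) ligands and their receptors are described here: the 6 genes PDGFA, PDGFB, PDGFC, PDGFD, PDGFRA and PDGFRB, out of 19775 genes that the platform annotation names by a single symbol. Members were all the probe sets annotated to exactly 1 of these symbols, which gave 15 of 54675 probe sets: 2 for PDGFA, 4 for PDGFB, 2 for PDGFC, 2 for PDGFD, 4 for PDGFRA and 1 for PDGFRB. Expression was measured in SCP2, a bone-colonising subline of the human breast cancer line MDA-MB-231, on 1 array for each of 4 groups. The groups were SCP2 cells labelled as overexpressing DLC1 and treated with TGF-beta, cells overexpressing DLC1 without it, vector control cells treated with TGF-beta, and untreated vector control cells. DLC1 is known as a tumour suppressor gene, and TGF-beta is a cytokine stored in bone matrix. The sources used here give no dose or duration for TGF-beta, no promoter for the DLC1 construct, and do not say whether the cells were a clone or a pool. No group has a replicate, so every difference compares single arrays, no p-value or replicate error can be given, and 1 array a group limits the precision of every value. Whether neighbouring levels of a member across the arrays differ by more than a replicate spread cannot be told.

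PDGFs are secreted dimers that stimulate the growth and movement of mesenchymal cells. The A and B chains leave the cell ready to bind after intracellular cleavage by furin-like proteases, whereas the C and D chains carry a CUB domain that extracellular proteases must remove first. PDGF-A and PDGF-C bind the alpha receptor, PDGF-D binds the beta receptor and PDGF-B binds both. The receptors are tyrosine kinases, typical of fibroblasts, pericytes and smooth muscle, and carcinoma cells are known more often as a source of the ligands than as cells that carry the receptors. TGF-beta is known to induce PDGF-B in several cell types.

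Promoter windows are shown for 3 members, PDGFA, PDGFD and PDGFRB, the members that have an entry and whose signal passed a filter on dim probe sets, so that the letters ahead of the measured genes can be seen. A window runs from 250 bases before to 50 bases after an annotated start, from RefSeq on GRCh38.p14, and 4 of the 6 genes have an entry; PDGFB and PDGFC do not. Capitals mark GGGCGG, the core of the GC box that SP1-type factors read, and CAGAC, the core of the SMAD element, each on either strand. The palindrome GTCTAGAC was searched too. The PDGFA window, chr7:519797-520096 on the minus strand, was the one of 4 for that gene with the highest share of G and C. The PDGFD window is chr11:104164098-104164397 and the PDGFRB window chr5:150155796-150156095, both on the minus strand.
PDGFA: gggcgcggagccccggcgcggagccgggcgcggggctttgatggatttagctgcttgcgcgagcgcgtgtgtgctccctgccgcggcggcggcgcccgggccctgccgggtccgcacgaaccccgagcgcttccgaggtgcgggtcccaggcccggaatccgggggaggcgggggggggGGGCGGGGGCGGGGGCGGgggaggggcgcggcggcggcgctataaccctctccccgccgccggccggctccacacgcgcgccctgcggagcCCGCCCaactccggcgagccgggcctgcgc
PDGFD: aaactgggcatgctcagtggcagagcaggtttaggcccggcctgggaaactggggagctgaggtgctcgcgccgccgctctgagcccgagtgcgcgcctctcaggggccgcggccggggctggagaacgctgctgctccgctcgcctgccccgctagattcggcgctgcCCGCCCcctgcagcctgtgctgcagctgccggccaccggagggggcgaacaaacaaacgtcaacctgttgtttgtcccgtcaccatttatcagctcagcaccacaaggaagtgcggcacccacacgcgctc
PDGFRB: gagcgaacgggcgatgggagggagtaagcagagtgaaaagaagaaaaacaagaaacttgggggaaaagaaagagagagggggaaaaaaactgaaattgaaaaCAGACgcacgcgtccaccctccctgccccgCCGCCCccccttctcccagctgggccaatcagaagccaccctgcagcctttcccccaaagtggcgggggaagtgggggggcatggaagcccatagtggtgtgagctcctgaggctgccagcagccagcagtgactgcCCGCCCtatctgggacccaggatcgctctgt
The PDGFA window held 4 copies of GGGCGG, the PDGFD window 1 and the PDGFRB window 2, and 45% of all 35116 windows of this length hold at least 1. CAGAC occurred once in the PDGFRB window and in neither of the other 2 shown, against 45.3% of all windows. A PDGFA window that is not shown, chr7:520651-520950, held 2 copies of CAGAC and 1 of GGGCGG. GTCTAGAC, found in 0.202% of all windows, was in none of the 3. The PDGFA window, picked for this share, was 81.7% G or C, the PDGFD window 67.3% and the PDGFRB window 59.3%, beside a median of 58.7% over all windows. These matches describe the letters of the windows alone.

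Intensities are in arbitrary units on a linear scale, and the level of one probe set cannot be set against that of another. A probe set was kept where at least 1 of its 4 values was no lower than 0.38, the median over the whole table. Of the 15 member probe sets 8 were kept, beside 24399 of all 41097 probe sets with a single symbol. Each of these 8 reached 0.38 on all 4 arrays, the lowest value being 0.42. The other 7, all 4 of PDGFRA, 2 of PDGFB and 1 of PDGFD, stayed at or below 0.36. Differences are on the log2 scale, and a difference of 1 or more, which is 2-fold, is called a rise or a fall. Because values were deposited with 2 decimals, the range that rounding allows is given for differences of dim probe sets.

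**Figure D1:**
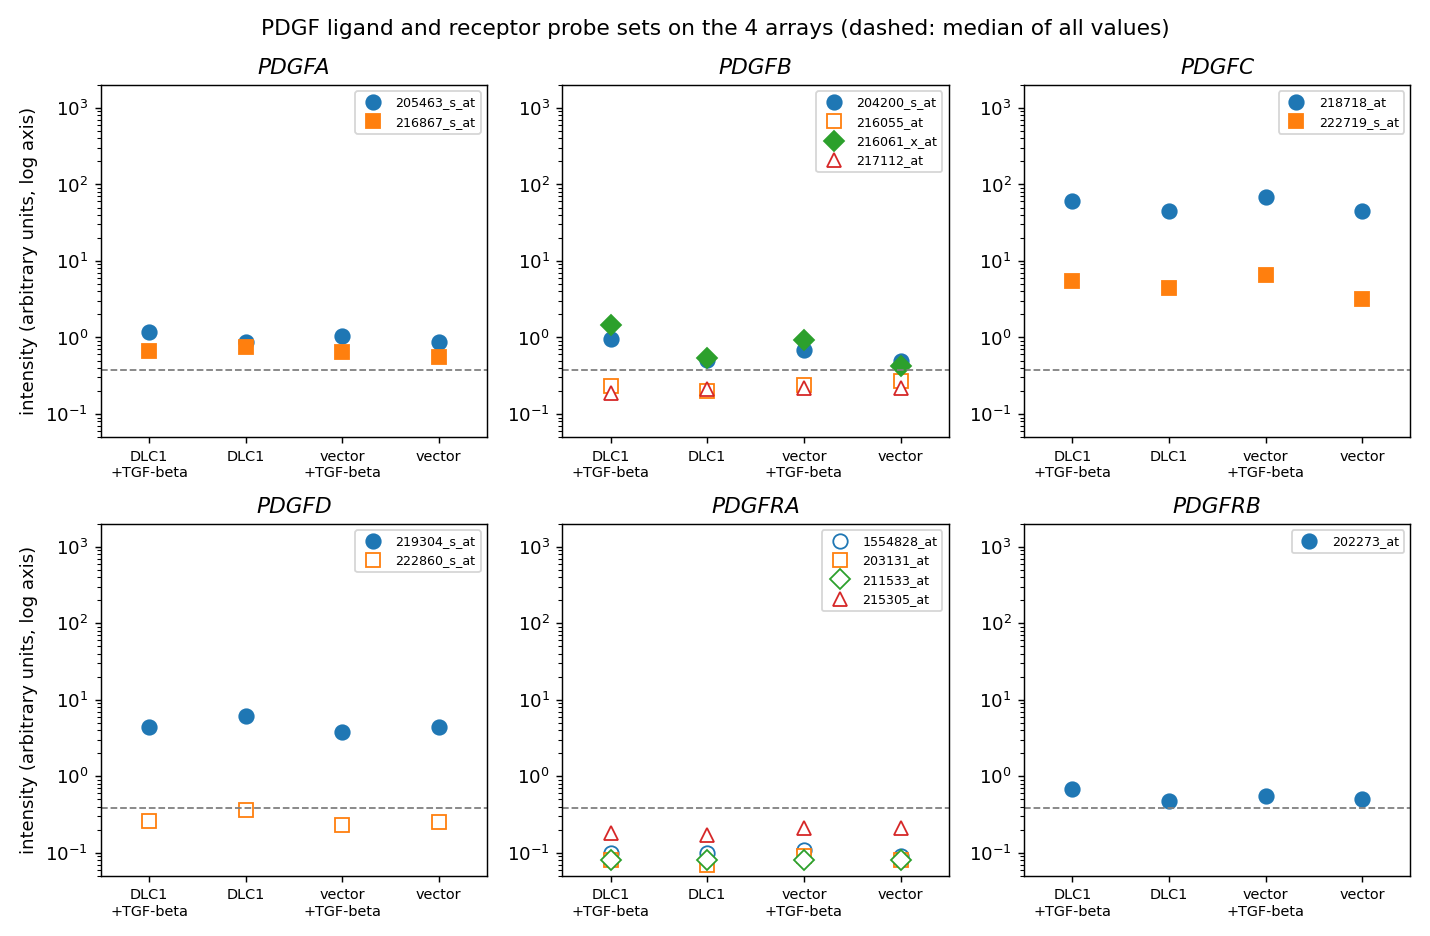
Intensity in arbitrary units (log axis) of the 15 PDGF ligand and receptor probe sets on each of the 4 arrays, 1 point an array, with filled symbols for the 8 kept probe sets and open symbols for the other 7. The dashed line is the median of all values, 0.38; PDGFC lay far above it on every array and PDGFRA below it on every array.

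The labels were checked first. DLC1 itself read, in its brightest probe set 210762_s_at, 3.64 in the DLC1 array with TGF-beta against 2.51 in the vector array with TGF-beta, and 3.38 in the DLC1 array against 1.77 in the vector array without it. The probe set 224822_at went the other way, at 1.69 against 2.41 with TGF-beta and 1.44 against 1.79 without it. So did 220512_at, at 0.19 against 0.41 with TGF-beta, a log2 difference of -1.11, and 0.18 against 0.26 without it. The other 2 probe sets of DLC1 read 0.14 or less. The probe sets of DLC1 go against each other and leave the overexpression labels unchecked, so those arrays are called the arrays labelled DLC1. All 5 measured TGF-beta response genes on the check list were at least 2-fold higher with TGF-beta in both backgrounds. Over all kept probe sets that share was 0.561%. The list was chosen with earlier results of these data known, so it is a weak check of the treatment labels. SMAD7, which encodes an inhibitory SMAD, read 3.65 against 0.85 in the arrays labelled DLC1 and 4.92 against 1.0 in the vector arrays. All 6 markers of basal-like breast cancer lines were kept, and VIM read 160.3 to 205.05. Of 10 pericyte and fibroblast markers 7 were kept, MCAM being the brightest at 5.89 to 6.63, while LUM, DCN and COL1A2 stayed at 0.31 or less. The summed level of these 10 was 9.92 in the array labelled DLC1 with TGF-beta, 10.32 in that without it, 9.26 in the vector array with TGF-beta and 10.02 in the untreated vector array; MCAM makes up most of this sum, so it says little of the dimmer markers. RGS5, a pericyte marker chosen after its values were seen, read 1.2 in the array labelled DLC1 with TGF-beta in its brightest probe set. The vector array with TGF-beta read 0.8, and without TGF-beta the values were 1.32 against 0.79. Its dimmer probe sets parted: 230678_at read 0.33 against 0.44 with TGF-beta and 0.32 against 0.59 without it. The other, 209070_s_at, read 0.46 against 0.23 and 0.47 against 0.44. Of the 7 kept markers, 2 were higher in the array labelled DLC1 than in the vector array in each state. With TGF-beta, ACTA2 and THY1 were level. The median differences were 0 with TGF-beta and -0.12 without it, beside -0.02 and -0.03 for all kept genes. The part of such cells in the results was not tested. Of 6 luminal breast markers 3 were kept, the highest value being 4.59 for GATA3 in the untreated vector array. Of the endothelial markers 1 of 5 was kept and of the leukocyte and platelet markers 4 of 6. Over all genes 13136 of 19775 were kept, so a kept count near that share says little of a cell type.

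Among the ligands PDGFB showed the widest range of the 6 genes. Its brightest probe set, 216061_x_at, read 1.44 in the array labelled DLC1 with TGF-beta, 0.54 in the array labelled DLC1 without it, 0.92 in the vector array with TGF-beta and 0.42 in the untreated vector array. Both TGF-beta arrays were above both untreated arrays, and within each treatment the array labelled DLC1 was the higher. With TGF-beta the level was 2.67-fold as high in the arrays labelled DLC1, a log2 difference of 1.42 (rounding 1.40 to 1.43), and 2.19-fold as high in the vector arrays, a log2 difference of 1.13 (1.11 to 1.16). Of the 24399 kept probe sets with a single symbol, 69 had a higher difference in the arrays labelled DLC1 and 228 in the vector arrays. PDGFB thus rose in both backgrounds by this probe set, although with 0.1 added to the intensities before log2 the difference in the vector arrays was 0.97. In a whole culture, a higher signal in each cell and a higher share of cells with the transcript cannot be told apart.

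The other kept PDGFB probe set, 204200_s_at, gave smaller differences with the same order of treated over untreated. It read 0.96 in the array labelled DLC1 with TGF-beta, 0.51 in that without it, 0.69 in the vector array with TGF-beta and 0.49 in the untreated vector array. Its log2 differences with TGF-beta were 0.91 in the arrays labelled DLC1 and 0.49 in the vector arrays, neither past 2-fold. A probe set ending in _x_at, as the brightest one does, holds probes that can also match other transcripts, and one ending in _s_at can match several transcripts of a gene or family. The 2 remaining PDGFB probe sets, 216055_at and 217112_at, read 0.19 to 0.27 on the 4 arrays and showed no such rise: their differences with TGF-beta ran from -0.17 to 0.20. The PDGFB rise of 2-fold therefore rests on 216061_x_at alone.

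PDGFC, whose product needs extracellular cleavage to bind, was bright on every array. Its probe set 218718_at read 60.22 in the array labelled DLC1 with TGF-beta, 45.58 in that without it, 67.86 in the vector array with TGF-beta and 44.43 in the untreated vector array, between the 98.3rd and the 99.1st percentile of each array, a rank that also depends on the probes. The treated arrays were again above the untreated ones, with log2 differences of 0.40 in the arrays labelled DLC1 and 0.61 in the vector arrays. The probe set 222719_s_at read 5.5 in the array labelled DLC1 with TGF-beta, 4.38 in that without it, 6.61 in the vector array with TGF-beta and 3.18 in the untreated vector array. It rose 2.08-fold in the vector arrays, a log2 difference of 1.06, and gave 0.33 in the arrays labelled DLC1. The first of these was exceeded by 267 of the 24399 kept probe sets.

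PDGFA, which encodes the chain that binds the alpha receptor alone, had probe sets that parted. The brighter one, 205463_s_at, read 1.18 in the array labelled DLC1 with TGF-beta, 0.87 in that without it, 1.05 in the vector array with TGF-beta and 0.88 in the untreated vector array. It gave log2 differences with TGF-beta of 0.44 in the arrays labelled DLC1 and 0.25 in the vector arrays. The other, 216867_s_at, read 0.66 in the array labelled DLC1 with TGF-beta, 0.74 in that without it, 0.65 in the vector array with TGF-beta and 0.56 in the untreated vector array. Its differences were -0.17 in the arrays labelled DLC1 and 0.22 in the vector arrays. Neither PDGFA probe set passed 2-fold in any comparison.

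PDGFD, which encodes a ligand of the beta receptor, was the ligand gene with lower values under TGF-beta in both of its probe sets and both backgrounds. Its kept probe set 219304_s_at read 4.35 in the array labelled DLC1 with TGF-beta, 6.06 in that without it, 3.83 in the vector array with TGF-beta and 4.41 in the untreated vector array. The log2 differences were -0.48 in the arrays labelled DLC1 and -0.20 in the vector arrays, and 495 of the 24399 kept probe sets lay lower in the first. The dim 222860_s_at read 0.26 in the array labelled DLC1 with TGF-beta, 0.36 in that without it, 0.23 in the vector array with TGF-beta and 0.25 in the untreated vector array. The untreated array labelled DLC1 was the highest of the 4 and the vector array with TGF-beta the lowest in both.

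The receptor genes differed from each other in whether their probe sets passed the filter. All 4 PDGFRA probe sets, for the alpha receptor, read 0.07 to 0.21 on every array, between the 1.43rd and the 36.8th percentile. At this level a rounding step is a sizeable part of the value: 203131_at read 0.08 in the array labelled DLC1 with TGF-beta and 0.07 in that without it, a log2 difference of 0.19 that rounding lets lie between 0 and 0.39. The brightest of the 4, 215305_at, read 0.18 in the array labelled DLC1 with TGF-beta against 0.21 in the vector array with it, and 0.17 against 0.21 without it, log2 differences of -0.22 (rounding -0.30 to -0.15) and -0.30 (-0.38 to -0.23). With TGF-beta 1554828_at gave 0.29 (0.14 to 0.44) in the vector arrays. These exceed rounding, but no PDGFRA difference reached 2-fold and all lie under the filter, where the signal does not show whether the transcript was present. PDGFRB, for the beta receptor, has the single probe set 202273_at, which read 0.69 in the array labelled DLC1 with TGF-beta, 0.48 in that without it, 0.56 in the vector array with TGF-beta and 0.5 in the untreated vector array. The array labelled DLC1 with TGF-beta was the highest, and the differences with TGF-beta were 0.52 (rounding 0.50 to 0.55) in the arrays labelled DLC1 and 0.16 (0.14 to 0.19) in the vector arrays. Both fall short of 2-fold. Passing the filter does not show that the PDGFRB transcript was present: GP9, on the leukocyte and platelet list, read 0.77 to 0.89 on the 4 arrays.

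**Figure D2:**
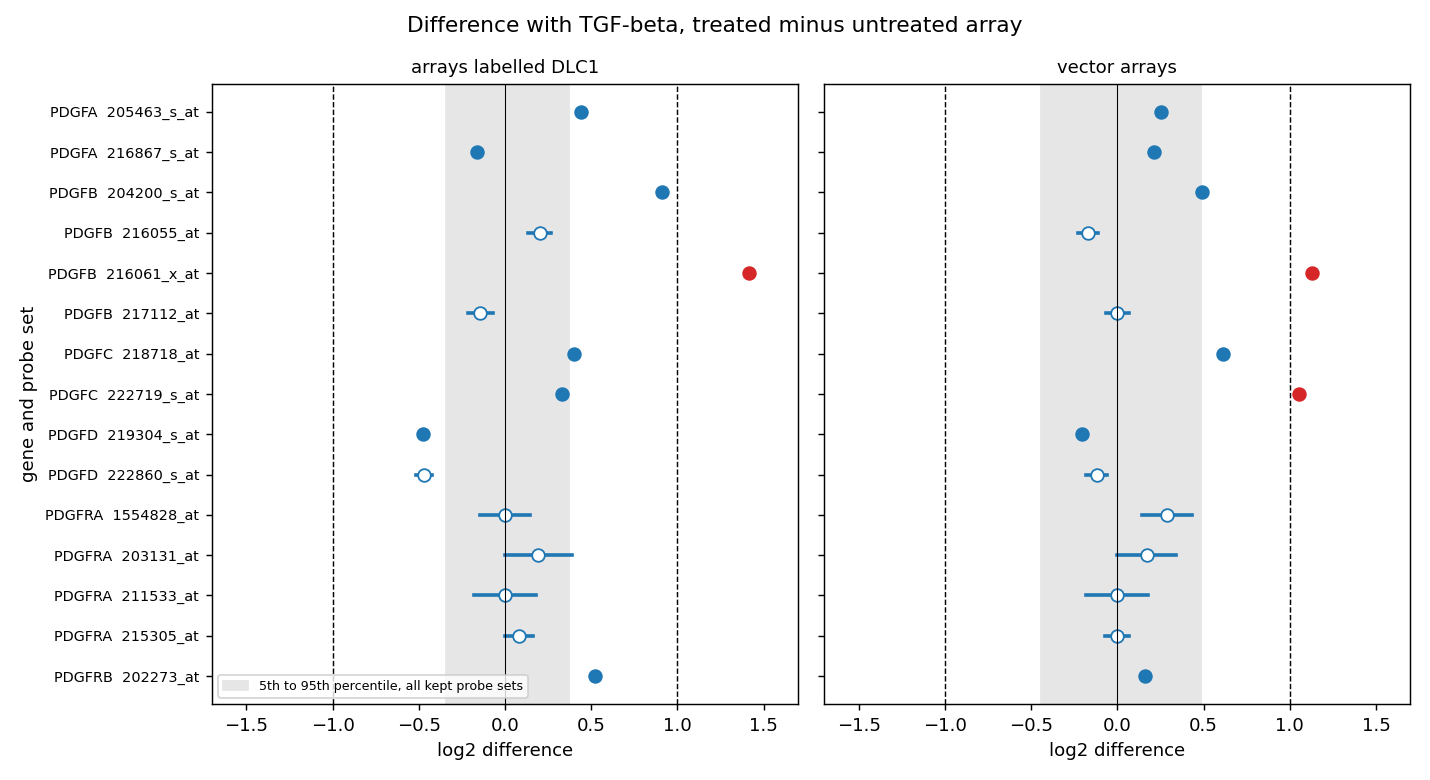
Log2 difference with TGF-beta, treated minus untreated array, for the 15 member probe sets in the arrays labelled DLC1 (left) and the vector arrays (right), with bars for the range that rounding allows, open points for probe sets under the filter and red for differences of at least 1 (dashed lines). The grey band holds the 5th to 95th percentile of all kept probe sets; 216061_x_at of PDGFB lay past 1 in both panels, at 1.42 and 1.13, and 222719_s_at of PDGFC in the vector panel, at 1.06.

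Counted over the kept member probe sets, 1 of 8 rose under TGF-beta in the arrays labelled DLC1, where 0.73% of all kept probe sets rose, and 2 of 8 rose in the vector arrays, where 1.25% did. None of the 8 fell, where 0.0943% and 0.525% of all kept probe sets did. The median difference of the 8 was 0.42 in the arrays labelled DLC1 and 0.37 in the vector arrays, beside -0.01 in each for all kept probe sets. Of the 8, 6 lay above 0 in both backgrounds, as did 28.6% of all kept probe sets, and 1 passed 2-fold in both, as did 0.561%. The 8 probe sets belong to 5 genes, and those of 1 gene are not independent of each other. RNA integrity was read from the array's own controls, as the 5' minus the 3' log2 signal of a transcript. For beta-actin this shifted under TGF-beta by 0.08 in the arrays labelled DLC1 and by 0.43 in the vector ones, and for GAPDH by -0.04 and 0.02. The part of RNA integrity in these differences was not tested.

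The arrays labelled DLC1 were then set against the vector arrays, with and without TGF-beta. No kept member probe set passed 2-fold in either state, where 3.29% of all kept probe sets did with TGF-beta and 4.12% without it. With TGF-beta the highest difference, array labelled DLC1 minus vector, was 0.65 for 216061_x_at of PDGFB, followed by 0.48 for 204200_s_at of the same gene and 0.30 for PDGFRB. Without TGF-beta the same 3 probe sets gave 0.36, 0.06 and -0.06. PDGFD 219304_s_at gave 0.18 with TGF-beta and 0.46 without it.

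The remaining kept members lay closer to 0 or differed between the states. PDGFC 218718_at gave -0.17 with TGF-beta and 0.04 without it, and 222719_s_at -0.27 and 0.46. PDGFA 205463_s_at gave 0.17 with TGF-beta and -0.02 without it, the second within rounding of 0, and 216867_s_at gave 0.02 and 0.40. The median of the 8 was 0.18 with TGF-beta and 0.21 without it, beside -0.01 and 0 for all kept probe sets. From vector to the array labelled DLC1, the 5' minus 3' signal of beta-actin shifted by -0.20 with TGF-beta and 0.15 without it. For GAPDH the shifts were -0.01 and 0.04. The part of RNA integrity here was not tested either. Centring the arrays on a housekeeping list moved the balance of all kept probe sets past 2-fold, to 564 higher and 282 lower with TGF-beta, against 432 and 370 as deposited, and to 643 higher and 371 lower without it, against 530 and 476, and brought no member past 2-fold.

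**Figure D3:**
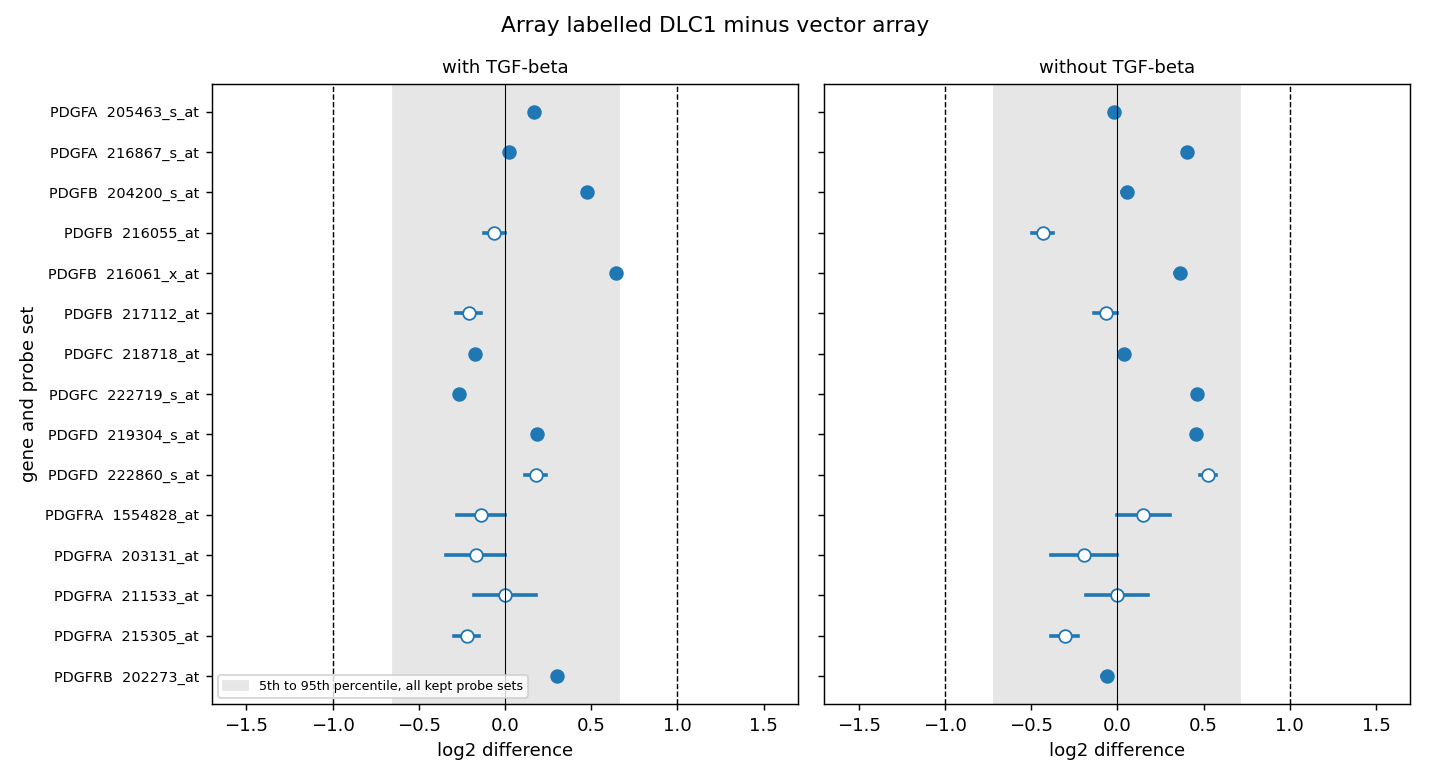
Log2 difference of the array labelled DLC1 minus the vector array for the 15 member probe sets, with TGF-beta (left) and without it (right), with bars for the range that rounding allows, open points for probe sets under the filter and a grey band for the 5th to 95th percentile of all kept probe sets. No point reached the dashed lines at 1 and -1; the highest kept one was PDGFB 216061_x_at with TGF-beta, at 0.65.

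The 2 factors were then combined, by subtracting the TGF-beta difference of the vector arrays from that of the arrays labelled DLC1. No member passed 2-fold on this scale, where 0.406% of all kept probe sets did. The lowest value among the kept members was -0.73 for PDGFC 222719_s_at, with 222 of the 24399 kept probe sets lower, while 218718_at of the same gene gave -0.21. PDGFB gave 0.28 in 216061_x_at and 0.42 in 204200_s_at, PDGFRB 0.36, PDGFD -0.27, and the PDGFA probe sets 0.18 and -0.38, of which the mean was -0.10. The array labelled DLC1 with TGF-beta was the highest of the 4 for 4 of the 8 kept probe sets, namely both of PDGFB, PDGFA 205463_s_at and PDGFRB, as it was for 21.5% of all kept probe sets. Both PDGFC probe sets were highest in the vector array with TGF-beta.

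PDGFB was the member whose brightest probe set ranged over at least 2-fold across the arrays, at 1.78 on the log2 scale, as did 8.88% of the 13136 kept genes by their brightest probe sets. The genes with the most similar profile over the 4 arrays, by the root mean square gap between log2 values centred on each gene's mean, were DNAJB2, PTPRB and LINC00702, at gaps of 0.14, 0.15 and 0.15. DNAJB2 read 3.3 in the array labelled DLC1 with TGF-beta, 1.62 in that without it, 2.49 in the vector array with TGF-beta and 1.14 in the untreated vector array. With 4 arrays such likeness is a description only.

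The genes that act on PDGFs outside the cell moved in few cases. Of 7 proteases that process PDGF chains, PLAU, the urokinase gene, whose product is known to activate PDGF-D, rose with TGF-beta in both backgrounds and none fell; 1 of 7 stands beside 0.792% of kept genes that rose in the arrays labelled DLC1 and 1.21% in the vector arrays. PLAU read 38.82 in the array labelled DLC1 with TGF-beta, 11.42 in that without it, 72.43 in the vector array with TGF-beta and 24.72 in the untreated vector array. It fell by 1.11 without TGF-beta in the array labelled DLC1 relative to vector, where 2.34% of kept genes fell, and gave -0.90 with TGF-beta, where 1.64% fell, while its probe set 211668_s_at gave -1.22 there. The list's medians for TGF-beta were -0.03 in the arrays labelled DLC1 and 0 in the vector arrays, beside -0.01 and -0.03 for all kept genes.

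Other proteases are named for their roles, after their values were seen. PLAT, the tissue plasminogen activator gene, whose product activates PDGF-C, read 22.24 in the array labelled DLC1 with TGF-beta, 19.99 in that without it, 26.09 in the vector array with TGF-beta and 30.5 in the untreated vector array. FURIN, whose product cleaves the A and B chains, gave TGF-beta differences of 0.96 in the arrays labelled DLC1 and 0.44 in the vector arrays. ST14, the matriptase gene, whose product also cleaves PDGF-D, stayed at 0.37 to 0.47.

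Among 7 co-receptors and PDGF-binding proteins none passed 2-fold with TGF-beta. Of all kept genes 0.792% rose in the arrays labelled DLC1 and 1.21% in the vector arrays, so this sets the list little apart. Without TGF-beta, A2M, a plasma protease inhibitor that binds PDGF-B, rose by 1.77 and SPARC, a matrix protein that binds PDGF-B, fell by 1.07 in the array labelled DLC1 relative to vector, where 1.63% of kept genes rose and 2.34% fell. A2M read 0.85 in the array labelled DLC1 and 0.25 in the vector array, and SPARC 0.29 and 0.61, so that the lower value of each lay under the filter and the sizes are uncertain. With TGF-beta they gave 0.87 and -0.59. NRP1, a co-receptor for PDGFs, also named after its values were seen, read 20.82 to 26.46 in its brightest probe set. Its dim probe set 1561365_at read 0.49 in the array labelled DLC1 against 0.16 in the vector array with TGF-beta. Without TGF-beta it read 0.31 against 0.21. The log2 differences were 1.61 and 0.56, with only the 0.49 above the filter. The brighter 210510_s_at gave 0.50 and 0.27.

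The signal transducers and negative regulators below the receptors were read next. None of 18 measured signal transducers, such as PLCG1, SHC1 and PIK3R1, passed 2-fold in any of the 4 comparisons, and their differences ran from -0.69 to 0.72. At most 2.34% of all kept genes passed it in 1 direction of a comparison, and 8.88% ranged over at least 2-fold across the 4 arrays. The second share also takes in array pairs outside these comparisons. Beside either share a count of 0 sets this list little apart. The transducers' medians with TGF-beta were 0.17 in the arrays labelled DLC1 and 0.06 in the vector arrays, beside -0.01 and -0.03 for all kept genes. Of 10 negative regulators 9 were kept. CBLB, a ubiquitin ligase gene, rose in the arrays labelled DLC1 relative to vector, where 1.45% of kept genes rose with TGF-beta and 1.63% without it: it read 10.06 against 4.5 with TGF-beta and 12.22 against 4.35 without it, log2 differences of 1.16 and 1.49. Its probe set 227900_at gave 1.32 and 1.60. GRB10, on the same list and named after its values were seen, gave 0.40 and 0.73 in its brightest probe set. Its dimmer probe sets 209409_at, 209410_s_at and 215248_at gave 0.68, 0.21 and 1.02 with TGF-beta and 1.08, 0.62 and 0.87 without it. The last of them read 0.32 or less in the vector arrays, under the filter. The list's medians were -0.13 with TGF-beta and -0.15 without it, beside -0.02 and -0.03 for all kept genes. SOCS3, a feedback inhibitor of cytokine signalling, fell by 1.06 in the vector arrays under TGF-beta, where 0.685% of kept genes fell, reading 2.27 against 4.74, and gave -0.47 in the arrays labelled DLC1, at 2.07 against 2.86. Its dimmer probe sets 206359_at and 206360_s_at gave -0.11 and -0.13 in the vector arrays.

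**Figure D4:**
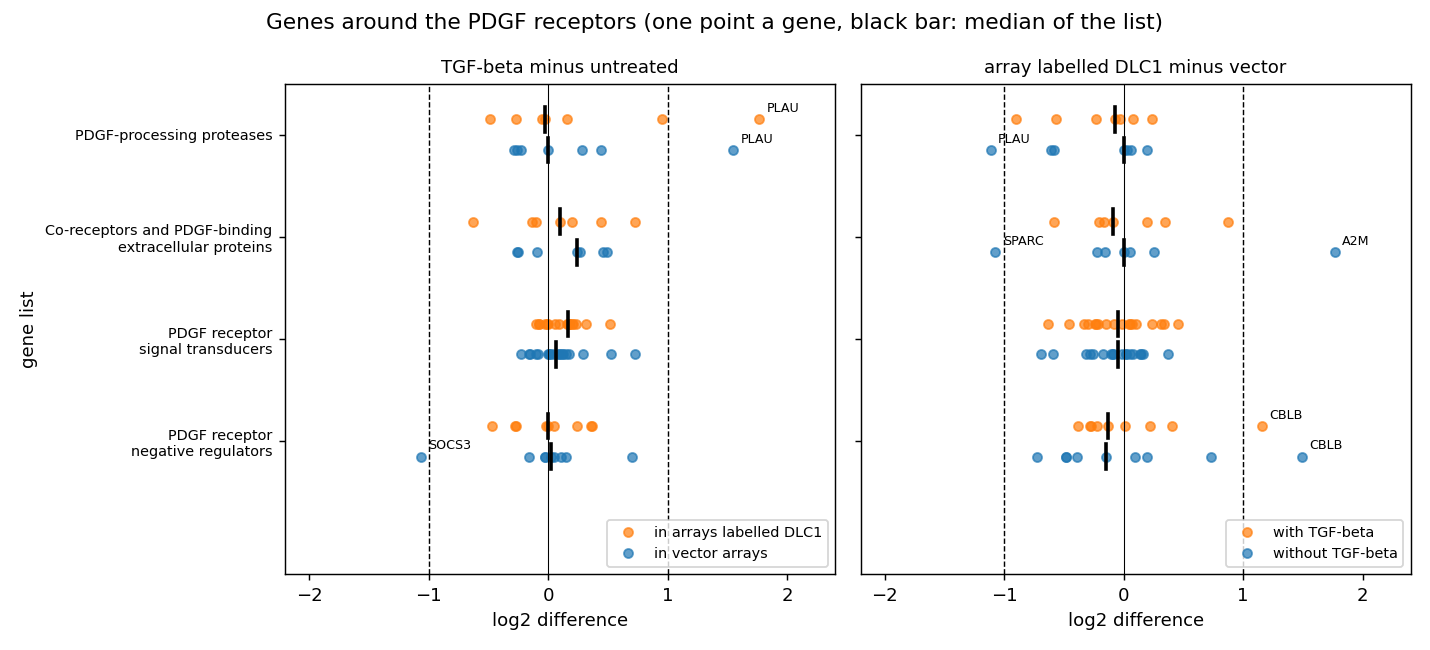
Log2 differences of the kept genes on 4 lists around the PDGF receptors, 1 point a gene and a black bar for the list's median, with TGF-beta minus untreated on the left and array labelled DLC1 minus vector on the right. Genes past the dashed lines at 1 and -1 are named; none of the 18 signal transducers lay beyond them.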

How the data were processed

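RNA of 4 SCP2 cultures was measured on 1 array each, grouped by the labels. The values are intensities deposited by the authors on a linear scale, 0.05 to 265.58 with 2 decimals. RMA, which corrects background and equalises arrays, is named per the submitters' processing notes, with version, settings and scale divisor not given in the sources used here. Array medians were 0.38 to 0.39, so shifts common to most transcripts are hidden.

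Log2 was taken and arrays were subtracted. The platform annotation gave 41097 probe sets 1 symbol, 1801 several and 11777 none; 41043 gene identifiers matched RefSeq and 0 symbols changed. Probe sets were kept if the highest of 4 values reached 0.38 (24399). A gene is its brightest single-symbol probe set; 13136 genes were kept. Named genes were the members, DLC1, up to 4 genes per list and comparison past 2-fold, and the 3 nearest profiles of a member ranging over 2-fold; other genes, named as examples of a list, were chosen after their values were seen. Besides the members, 13 gene lists were used. Members and lists were chosen with earlier results of these data known. The counting rule was tested on simulated data with planted differences beyond 2-fold. Such a test checks the working of the rule and not the error of the arrays. Alternatives were cyclic loess, quantile normalization, housekeeping centring, an offset of 0.1, other filters, probe sets without _x_at and _s_at, and means of probe sets. Software was Python 3.11.15, numpy 2.4.6, pandas 2.3.3, matplotlib 3.10.9, R 4.3.3 and limma 3.58.1.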

Additional observations from a re-analysis of the deposited data

Results flagged for a closer look

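Some members gave differences of opposite sign in the 2 backgrounds or the 2 treatment states, beyond what rounding allows. Each difference rests on 2 arrays, none reached 2-fold, and the difference between them was not tested. PDGFA 216867_s_at gave a TGF-beta difference of -0.17 in the arrays labelled DLC1 and of 0.22 in the vector arrays. For the array labelled DLC1 minus vector, PDGFC 218718_at gave -0.17 with TGF-beta and 0.037 without it, and PDGFC 222719_s_at gave -0.27 with TGF-beta and 0.46 without it. PDGFRB 202273_at gave 0.30 with TGF-beta and -0.059 without it.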

How the results depend on the processing

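No paired analysis was possible because each group has 1 array. The count of member probe sets past 2-fold kept its value under cyclic loess, quantile normalization, housekeeping centring, no filter and a filter on the mean, in all 4 comparisons and the combination of both factors. With 0.1 added before log2, the count for TGF-beta in the vector arrays was 1 instead of 2, since PDGFB 216061_x_at gave 0.97 there. Without probe sets ending in _x_at and _s_at, 2 member probe sets were left, and the TGF-beta counts were 0 in the arrays labelled DLC1 and 0 in the vector arrays. The mean of the kept PDGFB probe sets gave 1.16 in the arrays labelled DLC1 and 0.81 in the vector arrays. No member past 2-fold changed sign under any of these alternatives, and of 275 recomputed values of single members 273 stayed on their side of 2-fold. Many of the 275 could not move. The other filters and the removal of _x_at and _s_at probe sets leave each remaining value as it was. So does the mean for PDGFD and PDGFRB, which have 1 kept probe set each. By the submitters' notes RMA had already equalised the arrays, whose medians were 0.38 to 0.39. Cyclic loess and quantile normalization therefore had little left to change, in these values or in the counts. In the arrays labelled DLC1, PDGFB 216061_x_at gave 1.44 and 1.43 under them, against 1.42. For the array labelled DLC1 minus vector without TGF-beta, the small differences of PDGFA 205463_s_at and PDGFRB, -0.02 and -0.06, changed sign under housekeeping centring, to 0.06 and 0.02. The mean of the 2 PDGFA probe sets also turned the first, to 0.19, and turned the combination of both factors to -0.10, against 0.18 for 205463_s_at. Over all kept probe sets, adding 0.1 gave 20 higher and 35 lower for the combination of both factors, against 38 and 61, and in the arrays labelled DLC1 it left 14 lower with TGF-beta, against 23. Signal near the filter limits PDGFB, PDGFA and PDGFRB, and signal under it limits PDGFRA.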

Other observations

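Genes related in structure to the PDGFs and their receptors gave the following values, listed with no test. Of 4 measured VEGF-type ligand genes none passed 2-fold in its brightest probe set in any of the 4 comparisons. At most 2.34% of all kept genes did so in 1 direction of a comparison, and 8.88% ranged over at least 2-fold across the 4 arrays. VEGFA, an angiogenic factor gene, read 24.25 in the array labelled DLC1 with TGF-beta against 14.79 in the vector array with TGF-beta, and 26.86 against 15.84 without it, log2 differences of 0.71 and 0.76. Of its dimmer probe sets, 210513_s_at read 2.48 against 0.81 and 2.89 against 0.85, differences of 1.61 and 1.77. The others gave less: 212171_x_at 1.04 with TGF-beta and 0.91 without it, and 211527_x_at 0.63 in each state. The probe sets of PGF, the placental growth factor gene, parted: 215179_x_at gave -0.15 with TGF-beta and 0.11 without it, and 209652_s_at gave 1.37 and 0.98. VEGFA and PGF were singled out after their values were seen. Of 6 related receptor genes KIT and FLT3 were under the filter. KDR, which encodes a VEGF receptor, fell by 1.03 with TGF-beta, where 1.64% of kept genes fell, at 0.47 in the array labelled DLC1 against 0.96 in the vector array, and gave -0.69 without it, at 0.46 against 0.74. The first difference only just passed 2-fold, on values near the filter, so its size is uncertain. PDGFRL, a gene named for its likeness to the PDGF receptors, read 1.68 in the array labelled DLC1 with TGF-beta, 1.84 in that without it, 1.79 in the vector array with TGF-beta and 2.15 in the untreated vector array.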
